A study of Mus musculus with 8 samples.

Results

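The genes described here are 40 genes of epithelial cell junctions and the simple-epithelium cytoskeleton in the mouse intestine, among 27573 gene names on the array. They were chosen by name as claudins, other tight junction proteins, cadherins and catenins, desmosome proteins, the adhesion molecule Epcam, keratins, connexins, hemidesmosome and laminin genes, and actin linkers of the microvillus. All 40 had at least 1 probe, 2 of them under an older symbol (Tacstd1 for Epcam and Vil2 for Ezr), and each gene was represented by its brightest probe. A gene was tested in a comparison only if that probe exceeded the scanner's background criterion on all 4 arrays for GFPhi or for GFPlo RNA, or for deleted or control RNA, which held for 34 of the 40 among 10430 genes in the sorted cells and for 39 of the 40 among 15879 genes in the deletion.

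The study made 2 comparisons on 8 two-colour microarrays. GFPhi cells were set against GFPlo cells, both sorted from intestines of Lgr5-EGFP-ires-CreERT2 mice, in which the Lgr5 promoter drives the fluorescent protein; there were 2 sorts, each pooling 3 mice. Small intestinal epithelium of Ah-Cre/Ascl2 floxed/floxed mice, called deleted here, was set against that of Ah-Cre/Ascl2 floxed/wt controls at 3 and at 5 days after induction, so controls carried the Cre and 1 floxed copy too. Each of the 4 RNA pairs was hybridised in both dye orientations, and both arrays of a pair counted as 1 replicate, giving n = 2 pairs per comparison and 1 pair per day. The number of animals behind each deletion pair and the part of Ascl2 that the floxed allele removes are not given in the sources used here. All values are log2 ratios of GFPhi over GFPlo or of deleted over control, unless said otherwise.

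Epithelial cells of the gut are held together at their sides by tight junctions, which seal the space between cells, by adherens junctions, which tie cadherins to actin through catenins, and by desmosomes, which tie keratin filaments together across cells. Gap junctions of connexins pass small molecules between neighbours, and hemidesmosomes anchor the cell to the laminin of the basement membrane. As the cells leave the crypt and move onto the villus, they build the brush border and change which claudins and keratins they make.

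The labels were checked once on the genes that define the comparisons. Ascl2, the transcription factor deleted, had ratios of -1.36 and -1.30 on the day 3 arrays and -1.34 and -1.29 on the day 5 arrays, and Lgr5 had a mean of 1.85 ± 0.35 (SD, n = 2) in GFPhi over GFPlo. The share of spots above that criterion ran from 35.5% to 44.6% in the channels of the sort arrays, and reached 66.9% on the deletion arrays, with a lowest value of 55.0%. In the sorted cells 2 of 10 endothelial and 1 of 10 leukocyte markers passed the filter on signal, and in the deletion 3 of 10 and 9 of 10 did. No probe of the 40 genes was saturated on any array.

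The genes are described first by day after Ascl2 deletion. The share of them that differed between the days in limma's test, given below, was smaller than that of all genes. On day 3, Cldn2, the pore-forming claudin of leaky epithelia, and Gjb2, which encodes connexin 26, were lower in deleted epithelium, while Cldn4, a sealing claudin, Epcam, Ocln, the tight junction membrane protein occludin, and Cgn, the cytoplasmic tight junction protein cingulin, were higher. The promoters of 5 of them are shown so that genes lower and higher on day 3 can be read side by side. The sequences are those of RefSeq on build GRCm38.p6, from 250 bases before to 50 bases after the start, 5′ to 3′ along the gene. Capitals mark every match on either strand to the grainyhead-like motif AACCNGTT, the TCF/LEF motif CTTTGA, the E-box motifs CAGCTG and CAGGTG, and the TATA motif TATAAA.
Cldn2 (chrX:139800558-139800857, plus strand): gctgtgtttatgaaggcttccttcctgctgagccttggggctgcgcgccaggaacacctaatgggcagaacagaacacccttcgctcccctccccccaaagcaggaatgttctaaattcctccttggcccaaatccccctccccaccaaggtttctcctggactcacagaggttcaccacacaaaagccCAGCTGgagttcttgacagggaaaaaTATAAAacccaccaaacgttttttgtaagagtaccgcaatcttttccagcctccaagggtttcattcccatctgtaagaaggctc
Gjb2 (chr14:57104653-57104952, minus strand): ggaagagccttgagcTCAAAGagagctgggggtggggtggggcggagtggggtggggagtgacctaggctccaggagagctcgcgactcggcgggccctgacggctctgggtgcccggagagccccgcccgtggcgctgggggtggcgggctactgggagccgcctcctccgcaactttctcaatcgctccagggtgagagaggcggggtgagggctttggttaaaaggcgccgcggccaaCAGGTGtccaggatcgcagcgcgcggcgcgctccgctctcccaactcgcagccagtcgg
Cldn4 (chr5:134946885-134947184, minus strand): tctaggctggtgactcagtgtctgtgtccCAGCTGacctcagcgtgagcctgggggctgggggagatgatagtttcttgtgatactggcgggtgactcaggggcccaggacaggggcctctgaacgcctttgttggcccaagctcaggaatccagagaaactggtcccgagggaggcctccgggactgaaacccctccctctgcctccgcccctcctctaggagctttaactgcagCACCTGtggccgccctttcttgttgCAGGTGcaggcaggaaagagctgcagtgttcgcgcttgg
Epcam (chr17:87635729-87636028, plus strand): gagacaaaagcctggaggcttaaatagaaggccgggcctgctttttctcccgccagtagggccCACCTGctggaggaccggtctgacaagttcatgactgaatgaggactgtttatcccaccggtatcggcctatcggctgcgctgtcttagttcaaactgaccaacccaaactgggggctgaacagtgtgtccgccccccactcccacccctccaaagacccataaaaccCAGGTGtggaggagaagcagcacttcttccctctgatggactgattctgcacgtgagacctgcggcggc
Cgn (chr3:94786433-94786732, minus strand): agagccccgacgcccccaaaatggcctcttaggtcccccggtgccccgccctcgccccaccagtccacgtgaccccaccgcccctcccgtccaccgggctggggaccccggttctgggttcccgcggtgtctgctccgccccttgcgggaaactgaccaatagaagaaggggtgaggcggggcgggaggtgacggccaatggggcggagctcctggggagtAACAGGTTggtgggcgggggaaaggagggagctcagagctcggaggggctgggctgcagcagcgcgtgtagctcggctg

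No 2 of these matches overlap in the promoters shown. Of the 40 genes, 26 were found in the RefSeq promoter table, with 36 promoters in all. CAGGTG stood in 16 of the 36 promoters, from 14 genes, and in 20.2% of all 32851 promoters in that table. CAGCTG stood in 4 of the 36 and in 16.3% of all promoters, CTTTGA in 3 and in 16%, AACCNGTT in 2 (Cgn and Cldn5) and in 2.09%, and TATAAA in 6 and in 13.6%. Cldn2 held CAGCTG and TATAAA, Gjb2 held CTTTGA and CAGGTG, Cldn4 held CAGCTG and CAGGTG, and Epcam held CAGGTG. A match here describes the letters of this window.

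Taken by day, the deleted epithelium had higher ratios for most of the 39 genes tested. On day 3, 28 of the 39 (71.8%) were above 0 on both arrays, against 38.9% of all genes tested, and 7 of the 39 (17.9%) were below 0 on both, against 39.5%. The median of the 39 was 0.34 on day 3, against 0.0034 for all genes. On day 5, 21 of the 39 (53.8%) were above 0 on both arrays, against 31.6% of all genes, and 6 (15.4%) below 0 on both, against 34.9%. The day 5 median was 0.11, against -0.0067 for all genes. Averaged over days, 31 of the 39 lay above 0, against 49.8% of all genes. The day 5 direction depended on the scaling: with each array only centred on its median and not loess-normalised, 11 of the 39 were above 0 on day 5, against 28.8% of all genes, and their median of -0.091 stood beside -0.095 for all genes. On day 3 the same setting gave 30 of 39 above 0, against 41% of all genes, with a median of 0.24 against -0.077. Averaged over days it gave 23 of 39 above 0, against 33.8% of all genes. In bulk epithelium, fewer cells of a type and less RNA per cell cannot be told apart.

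Over both days together, 14 of the 39 genes (35.9%) were above 0 on all 4 deletion arrays, against 12.6% of all genes, and 1 (2.56%) was below 0 on all 4, against 13.3%. None of the 39 passed limma's test of the deletion over both days, and none of the 15879 genes did (0%), at a Benjamini-Hochberg adjusted p under 0.05. At an unadjusted p under 0.05 there were 7 of the 39 (Cldn7, Cldn23, Cgn, Ctnnd1, Dsp, Pkp3 and Ppl), against 9.65% of all genes. The adjusted p values of the 39 ran from 0.454 to 0.992. The 2 pairs are day 3 and day 5, so the spread in this test includes the difference between days. A fit of all 8 arrays in which the RNA pair was a random block called 0 of the 39 and 1.61% of all genes.

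With day 5 left out, limma called 21 of the 39 genes on day 3 (53.8%), against 38.4% of all genes: 17 higher, against 17.7%, and 4 lower (Cldn2, Gjb2, Pkp2 and Lama5), against 20.7%. This fit has 1 deletion pair, which is assumed to vary like the 2 sorts. Tjp1 and Ctnnd1, among the 17, were not tested in the sorts, where their ratios lay close together. With day 3 left out it called 1 of the 39 on day 5, Cldn8, against 7.47% of all genes.

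**Figure D1:**
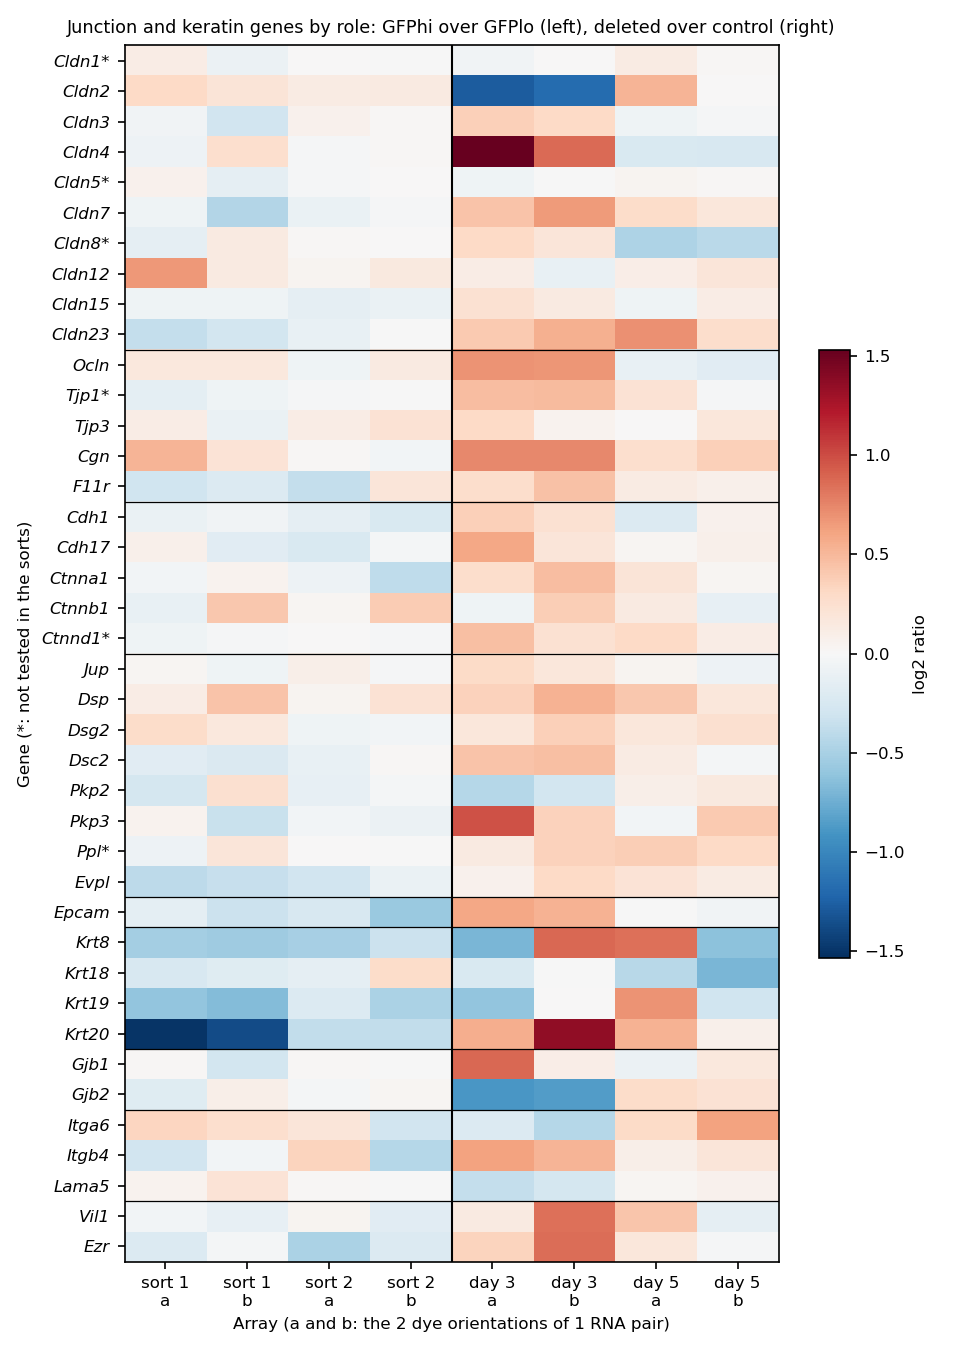
Log2 ratios (colour) of the 40 genes (rows, grouped by role, with lines between roles) on the 8 arrays (columns): GFPhi over GFPlo on the left, deleted over control on the right. On day 3, 28 of the 39 genes tested in the deletion are above 0 on both arrays, and Cldn2, Gjb2 and 5 others are below 0 on both.

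The ratio on day 5 differed from that on day 3 for 8 of the 39 genes (20.5%) in limma's test, against 27.8% of all 15879 genes, a share below the background. Of these, Cldn2, Pkp2 and Gjb2 were higher on day 5 than on day 3, against 15.5% of all genes, and Cldn4, Cldn8, Ocln, Pkp3 and Epcam were lower, against 12.3%. The test has 1 RNA pair per day, so its spread comes from the sorts alone. With the scanner's own processed signals it called 0 of the 39 and 0.453% of all genes. For some genes below, the arrays of the days are said not to overlap. The arrays of a day are dye swaps of the same RNA pair, so such a gap shows technical agreement and not separation of replicates. The share of all genes with such a gap was not computed.

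Among the claudins, Cldn2 had ratios of -1.28 and -1.18 on the day 3 arrays and 0.53 and 0.01 on the day 5 arrays. Its normalised intensity was 674 and 664 in deleted and 1631 and 1508 in control epithelium on day 3, and 1925 and 1727 in deleted and 1336 and 1715 in control epithelium on day 5. Deleted samples were lower than controls on both day 3 arrays by 2.34-fold on average, and the days did not overlap. The difference of day 5 minus day 3 was 1.50 ± 0.12 (SE; adjusted p = 0.00651), and the probe lies at chrX:135157069-135157128 on mouse build mm8.

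Cldn4 had ratios of 1.53 and 0.87 on day 3 and -0.24 and -0.25 on day 5. Its intensities on day 3 were 517 and 366 in deleted against 179 and 200 in control epithelium, a mean of 2.30-fold higher, and on day 5 they were 173 and 188 in deleted against 204 and 224 in control epithelium. The difference of -1.45 ± 0.12 (SE; adjusted p = 0.00636) runs opposite to that of Cldn2. The Cldn4 probe lies at chr5:135230104-135230163 (mm8). It was well above background on all 4 arrays of each deletion RNA, but its intensities are low. Cldn1, not well above background on any array, had 123 to 136 on the deletion arrays. Over the scalings tried, the Cldn4 mean ran from 1.07 to 1.56 on day 3 and from -0.68 to -0.24 on day 5.

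Cldn8, a claudin of tight epithelia, had 0.31 and 0.19 on day 3 and -0.47 and -0.41 on day 5, a difference of -0.69 ± 0.11 (SE; adjusted p = 0.0179). This probe was well above background on 4 deleted and 3 control arrays and on 2 of 4 arrays of each sorted RNA, so its standard error is low. When only genes tested in both comparisons entered, an alternative chosen after seeing the data, Cldn8 was not tested, the count was 8 of 34 (23.5%), against 30.7% of all genes, and Itga6 joined the calls.

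Cldn7 and Cldn23 were higher in deleted epithelium on all 4 arrays. Cldn7, a broadly made epithelial claudin, had 0.44 and 0.65 on day 3 and 0.28 and 0.17 on day 5, with a mean of 0.39 ± 0.23 (SD, n = 2; adjusted p = 0.506). Cldn23 had 0.40 and 0.55 on day 3 and 0.70 and 0.27 on day 5, with a mean of 0.48 ± 0.01 (SD, n = 2; adjusted p = 0.454). Cldn3 averaged 0.34 on day 3 and -0.042 on day 5, Cldn15 averaged 0.19 and 0.021, and both were higher on both day 3 arrays, whereas Cldn12 had means of -0.0030 and 0.14 and did not lean one way on day 3. Cldn1 was not well above background on any array. Cldn5, the claudin of endothelium, was not above background in either sorted RNA, was so on 4 deleted and 3 control arrays, and stayed within -0.07 and 0.05 on the deletion arrays.

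Of the other tight junction genes, Ocln had 0.69 and 0.68 on day 3 and -0.11 and -0.17 on day 5, with no overlap between the days. Its day difference was -0.83 ± 0.12 (SE; adjusted p = 0.0166). A dimmer Ocln probe gave 0.33 on day 3 and 0.07 on day 5. Cgn had 0.74 and 0.74 on day 3 and 0.26 and 0.37 on day 5, all above 0, with a mean of 0.53 ± 0.30 (SD, n = 2; adjusted p = 0.505). Its dimmer probes gave 0.24 and 0.32 on day 3. Even the brightest Cgn probe was low on day 3, at 467 and 464 in deleted against 280 and 279 in control epithelium. The scaffold gene Tjp1 (ZO-1) had a mean of 0.48 on day 3 and 0.10 on day 5, Tjp3 (ZO-3) had 0.18 and 0.09, and F11r, which encodes the junctional adhesion molecule JAM-A, had 0.36 and 0.10.

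The adherens junction genes lay above 0 on day 3 in 5 of 5 cases. Cdh1 (E-cadherin) had 0.36 and 0.23 on day 3 and -0.21 and 0.06 on day 5, and Cdh17, the intestinal LI-cadherin, had 0.59 and 0.19 on day 3 and 0.03 and 0.08 on day 5. Among catenins, Ctnna1, Ctnnb1 and Ctnnd1 averaged 0.37, 0.16 and 0.35 on day 3 and 0.11, 0.0042 and 0.21 on day 5. Probes of Ctnnb1 (β-catenin) disagreed in size: its brightest gave 0.16 on day 3 and the others 0.18 and 0.73. A second, dimmer Ctnna1 probe gave 0.87 on day 3 and 0.54 on day 5.

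Of the 8 desmosome genes, 7 were above 0 on both day 3 arrays and Pkp2 (plakophilin 2) was below. Dsp (desmoplakin, which ties keratins to the desmosome) had 0.35 and 0.53 on day 3 and 0.41 and 0.18 on day 5, with a mean of 0.37 ± 0.10 (SD, n = 2; adjusted p = 0.475). Pkp3 had 0.98 and 0.35 on day 3 and -0.04 and 0.40 on day 5, a difference of -0.49 ± 0.11 (SE; adjusted p = 0.0428), although the arrays of the days overlapped. Pkp2 ran the other way, with -0.44 and -0.29 on day 3 and 0.08 and 0.15 on day 5, a difference of 0.48 ± 0.11 (SE; adjusted p = 0.0427). The cadherins Dsg2 and Dsc2 averaged 0.27 and 0.45 on day 3, Jup (plakoglobin) 0.24, and the plakins Ppl and Evpl 0.25 and 0.19.

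Epcam, the homophilic adhesion molecule of gut epithelium, had 0.59 and 0.53 on day 3 and -0.01 and -0.06 on day 5. With no overlap between the days, the difference was -0.60 ± 0.14 (SE; adjusted p = 0.0411).

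The keratins lay on both sides of 0 after the deletion. Krt20, the keratin of differentiated villus cells, had 0.56 and 1.36 on day 3 and 0.53 and 0.08 on day 5, with a mean of 0.63 ± 0.46 (SD, n = 2; adjusted p = 0.554). On each day the Krt20 ratio was higher on the array with the deleted RNA in Cy5. Krt18, the type I partner of keratin 8, was the only 1 of the 39 genes below 0 on all 4 arrays, with -0.23 and -0.0028 on day 3 and -0.43 and -0.70 on day 5. Averaged over the days it was -0.34 ± 0.31 (SD, n = 2; adjusted p = 0.544).

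Krt8, the type II keratin of simple epithelia, gave -0.70 and 0.88 on day 3 and 0.85 and -0.63 on day 5. Its sign followed the dye orientation of the array on both days, and the means of the swapped arrays were 0.09 and 0.11. Krt19 gave -0.60 and 0.01 on day 3 and 0.69 and -0.31 on day 5, again on both sides of 0. Its ratio too was higher on the array with the deleted RNA in Cy5 on each day. The 2 Krt8 probes gave close means, 0.09 and 0.14 on day 3.

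The connexins and the basal genes split. Gjb2 had -0.90 and -0.85 on day 3 and 0.28 and 0.22 on day 5, with a difference of 1.12 ± 0.11 (SE; adjusted p = 0.00817) and no overlap; its probe lies at chr14:56052902-56052961 (mm8). A dimmer Gjb2 probe gave -0.44 on day 3 and 0.09 on day 5. Gjb1, which encodes connexin 32, had 0.89 and 0.10 on day 3 and -0.09 and 0.17 on day 5.

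Itga6 and Itgb4 encode the subunits of the hemidesmosome integrin and differed in direction on day 3. Itga6 had -0.21 and -0.43 on day 3 and 0.29 and 0.61 on day 5, a difference of 0.78 ± 0.20 (SE; adjusted p = 0.0516) that missed the threshold. One of the dimmer Itga6 probes gave 0.01 on day 3. Itgb4 had 0.62 and 0.52 on day 3 and 0.09 and 0.19 on day 5, with a mean of 0.35 ± 0.30 (SD, n = 2; adjusted p = 0.521). Lama5, a laminin of the basement membrane, averaged -0.32 on day 3 and 0.05 on day 5. Its day 3 intensities were low, at 198 and 203 in deleted against 256 and 244 in control epithelium.

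Both actin linkers of the microvillus were above 0 on day 3. For both, the array with the deleted RNA in Cy5 gave the higher ratio on each day. Ezr (ezrin) had 0.34 and 0.86 on day 3 and 0.17 and -0.02 on day 5, a difference of -0.52 ± 0.15 (SE; adjusted p = 0.0713), and Vil1 (villin) had 0.14 and 0.85 on day 3 and 0.42 and -0.14 on day 5.

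**Figure D2:**
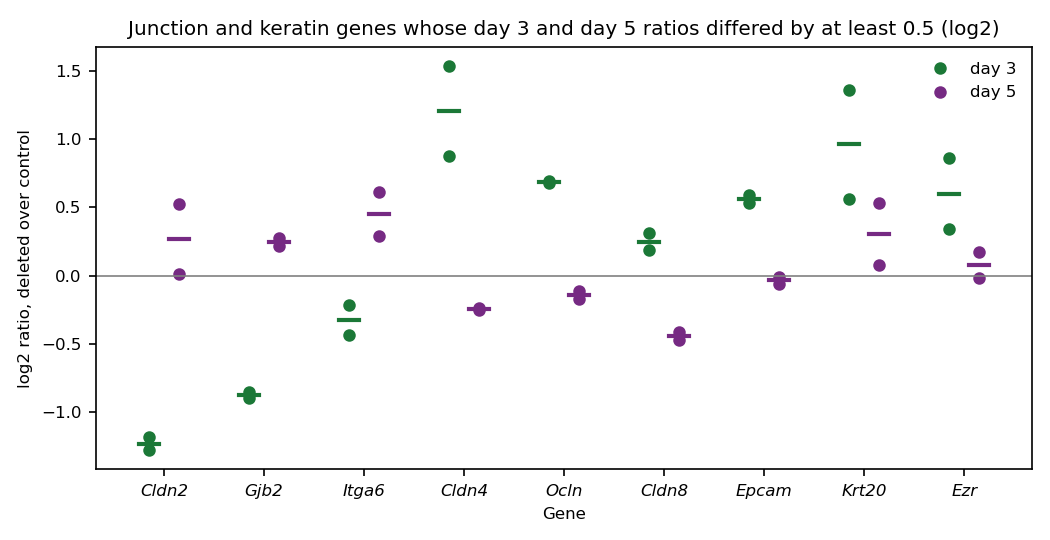
Log2 ratio of deleted over control epithelium (y axis) for the 9 genes (x axis) whose day 3 and day 5 means differ by at least 0.5, with points for arrays and bars for the mean of the pair. Cldn2, Gjb2 and Itga6 lie below 0 on day 3 and above 0 on day 5, and Cldn4, Ocln and Cldn8 lie above 0 on day 3 and below 0 on day 5.

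Other genes of the same structures were followed through lists of 122 further genes on the array. Of the 89 tested in the deletion, 62 were above 0 on day 3 with a median of 0.18, and 50 on day 5 with a median of 0.03, where 50.4% of all genes were above 0 on day 3 and 48.1% on day 5. No listed gene passed the test over both days. The further microvillus genes stood highest on day 3, with 17 of 18 above 0 and a median of 0.61, against 8 of 18 and -0.02 on day 5, and 11 of the 18 passed the day test, all lower on day 5, against 12.3% of all genes called in that direction. Espn, which encodes an actin bundler, had 0.92 and 0.72 on day 3 and 0.06 and 0.11 on day 5. Rdx (radixin) and Msn (moesin), relatives of ezrin, had day 3 means of 0.55 and 0.26.

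Further tight junction genes had a day 3 median of 0.24 with 17 of 22 above 0, led over both days by Cxadr, a junctional adhesion receptor, at 0.65 on day 3 and 0.20 on day 5. Of the further desmosome genes 3 of 4 were above 0 on day 3, with Perp at 0.57 and Pkp4 at 0.45. Further adherens junction genes had medians of 0.07 on day 3 and 0.12 on day 5, and Nectin2 had means of 0.36 and 0.11. The further keratins had 5 of 10 above 0 on day 3, and Krt15 was below 0 on all 4 arrays with a mean of -0.50. Further connexins and pannexins had 2 of 4 above 0 and further hemidesmosome and basement membrane genes 10 of 17, with medians of -0.11 and 0.06.

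Markers of the cell types of the epithelium differed on the same RNA pairs. All 10 enterocyte markers were above 0 on day 3 with a median of 0.70, and 1 of 10 was above 0 on day 5 with a median of -0.42. Their summed intensity was 563497 to 644602 in deleted and 291472 to 501657 in control epithelium on day 3, and 278328 to 383346 in deleted and 430988 to 451860 in control epithelium on day 5. Goblet cell markers were above 0 for 6 of 8 on day 3 (median 0.54), with sums of 490508 to 579411 in deleted and 150583 to 271220 in control epithelium, and tuft cell markers for 8 of 8 (median 0.80), with sums of 4823 to 4988 in deleted and 2708 to 2788 in control epithelium. On day 5 the medians were -0.051 for goblet and -0.41 for tuft cell markers. Enteroendocrine markers were above 0 for 7 of 10 on day 3 (median 0.40), with sums of 101280 to 107852 in deleted and 83625 to 99003 in control epithelium, and for 2 of 10 on day 5 (median -0.35). Their part in the values of the junction genes was not tested.

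Lower on day 3 were proliferation markers, below 0 for 10 of 10 with a median of -1.13 and sums of 24445 to 26638 in deleted and 50084 to 50728 in control epithelium. Paneth cell markers were below 0 for 6 of 6 with a median of -1.26 and sums of 89170 to 215619 in deleted and 308607 to 459858 in control epithelium. Crypt base markers, Ascl2 and Lgr5 among them, were below 0 for 8 of 10 with a median of -0.76 and sums of 5873 to 6219 in deleted and 11841 to 12054 in control epithelium. On day 5 the medians were -0.03, 0.48 and -0.42 for these 3 lists. Fibroblast and muscle markers had sums of 22623 to 24284 in deleted against 5332 to 5913 in control epithelium on day 5, and of 8934 to 10142 in deleted against 9246 to 9491 in control epithelium on day 3. Their medians over 9 tested genes were 1.53 on day 5 and 0.05 on day 3, and Des (desmin) was not well above background in either RNA. Leukocyte markers had sums of 8133 to 8173 in deleted against 4422 to 4597 in control epithelium on day 3. The part of each of these in the junction values was not tested.

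**Figure D3:**
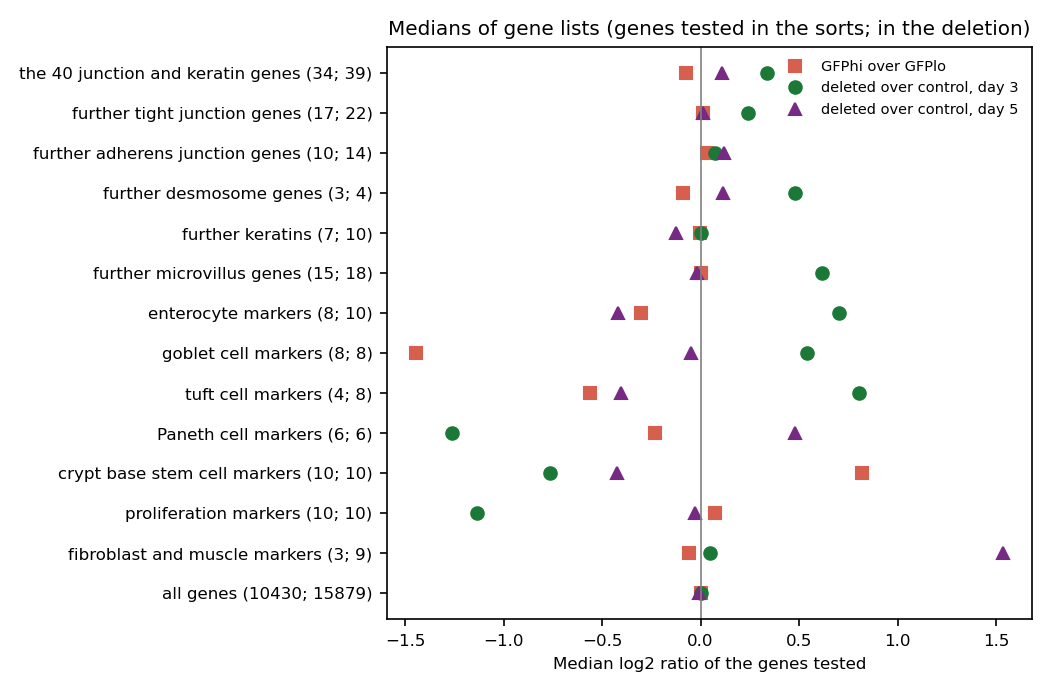
Median log2 ratio (x axis) of the genes tested in each list (y axis), for GFPhi over GFPlo (squares), and for deleted over control on day 3 (circles) and day 5 (triangles); each label gives the genes tested in the sorts and in the deletion. The day 3 median of the 39 genes is 0.34, that of enterocyte markers 0.70 and that of proliferation markers -1.13.

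In the sorted cells the largest mean differences between GFPhi and GFPlo were those of Krt20, Krt19 and Krt8. Sizes depended on the processing. With the scanner's processed signals Cldn23 went from -0.19 to -0.50 and Cldn12 from 0.25 to 0.46, while Ezr went from -0.23 to -0.16. Over the 34 genes tested, 22 were below 0 and 12 above, with a median of -0.073 against 0.0002 for all genes. On all 4 arrays 10 of the 34 (29.4%) were below 0, against 17.2% of all genes, and 3 (8.82%) above, against 16.5%. None of the 34 passed limma's test, and none of the 10430 genes did (0%), and the adjusted p values of the 34 ran from 0.648 to 1. At an unadjusted p under 0.05 there were 4 of the 34 (Evpl, Krt8, Krt19 and Krt20), against 5.03% of all genes. The test shares 1 spread with the deletion, so this spread includes the difference between the deletion days. With the sorts fitted alone, 0 of the 34 and 1.2% of all genes passed.

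All 4 keratins lay below 0 in GFPhi over GFPlo on average. Krt20 gave -1.50 and -1.37 on the arrays of sort 1 and -0.38 and -0.38 on those of sort 2, a mean of -0.91 ± 0.75 (SD, n = 2; adjusted p = 0.966), so that the sorts differed more than their arrays. The spread between sorts depended on the processing. The mean was -1.17 ± 0.26 (SD, n = 2) without background subtraction and -1.42 ± 0.24 with the scanner's processed signals. It was -1.43 ± 0.25 with the series matrix and -0.95 ± 0.52 with median centring. The Krt20 probe lies at chr11:99244552-99244611 (mm8). Its intensity was 1714 and 1639 in GFPhi against 4847 and 4243 in GFPlo cells in sort 1, and 1222 and 1403 in GFPhi against 1592 and 1822 in GFPlo cells in sort 2. Krt8 had -0.52, -0.55, -0.51 and -0.33 over the 4 arrays, a mean of -0.48 ± 0.08 (SD, n = 2; adjusted p = 0.648). Both sorts gave similar values for Krt8. Krt19, the small type I keratin, gave -0.61 and -0.67 on the arrays of sort 1, then -0.21 and -0.49 on those of sort 2, a mean of -0.49 ± 0.20 (SD, n = 2; adjusted p = 0.881). Krt18 averaged -0.073 ± 0.21 (SD, n = 2) and was on both sides of 0.

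Epcam gave -0.15 and -0.32 on the arrays of sort 1, then -0.25 and -0.58 on those of sort 2, a mean of -0.32 ± 0.13 (SD, n = 2; adjusted p = 1). The other genes below 0 on all 4 arrays were Evpl, at -0.29 ± 0.13 (SD, n = 2), Ezr at -0.23, Cldn23 at -0.19, Cldn7 at -0.16, Cdh1 at -0.13 and Cldn15 at -0.09. Those above 0 on all 4 were Cldn12 at 0.25, Dsp at 0.20 and Cldn2 at 0.19, where Cldn2 had 0.30 and 0.19 in sort 1 and 0.13 and 0.14 in sort 2. Probes well above background disagreed in sign for 6 of the 12 genes that had several in the sorts (Cgn, Ctnna1, Dsc2, Dsg2, Itgb4 and Ocln), against 0 of 14 in the deletion.

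Further genes of the same structures that kept 1 sign on all 4 sort arrays went both ways. Lower in GFPhi were Perp, at -0.48, Cdhr5, a protocadherin of the brush border, at -0.49, and Nectin1 at -0.49. Higher were Lamb3, a laminin chain, at 0.58, Lmo7 at 0.45 and Myo7b, a brush border myosin, at 0.39. Of the 65 further genes tested in the sorts, 32 were above 0, with a median of -0.0003.

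The sorted cells also differed in markers of secretory cells, though not evenly between the types. All 8 goblet markers tested were below 0 on all 4 arrays, with a median of -1.44 and sums of 44012 to 44334 in GFPhi against 135276 to 136031 in GFPlo cells in sort 2, and 85237 to 86476 in GFPhi against 267298 to 298525 in GFPlo cells in sort 1. The 8 enteroendocrine markers tested were below 0 on all 4 arrays too, with a median of -1.58 and sums of 12110 to 19103 in GFPhi against 46700 to 76274 in GFPlo cells over both sorts. The 4 tuft cell markers tested were below 0 on all 4 arrays, with medians of -1.08 in sort 1 and -0.05 in sort 2. Of the 6 Paneth cell markers, 2 were below 0 on all 4 arrays, with medians of -0.41 in sort 1 and -0.05 in sort 2. Paneth sums in sort 2 were 203665 to 299971 in GFPhi against 192069 to 257541 in GFPlo cells. Of the 8 enterocyte markers tested, 7 were below 0 on all 4 arrays, with a median of -0.30 for the list. The enterocyte sums were 9839 to 9952 in GFPhi against 15573 to 16055 in GFPlo cells in sort 1, and 18853 to 20202 in GFPhi against 25952 to 27548 in GFPlo cells in sort 2. Their part in the keratin values was not tested.

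The 2 comparisons share no RNA. Among the 34 genes tested in both, 18 (52.9%) were below 0 in GFPhi over GFPlo and above 0 in deleted over control on day 3, against 24.4% of the 10305 genes tested in both. The opposite corner, above 0 in the sorts and below 0 on day 3, held 4 of the 34 (11.8%), among them Cldn2, against 29.0% of all. A further 8 were above 0 in both and 4 below 0 in both. Most of the 34 lay below 0 in the sorts and most above 0 on day 3, which alone fills the first corner. Whether the 2 directions go together gene by gene was not tested. Krt20 and Epcam lay in the first corner, with sort means of -0.91 and -0.32 and day 3 means of 0.96 and 0.56. Cldn4 did not, with a sort mean of 0.05 and a day 3 mean of 1.20.

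**Figure D4:**
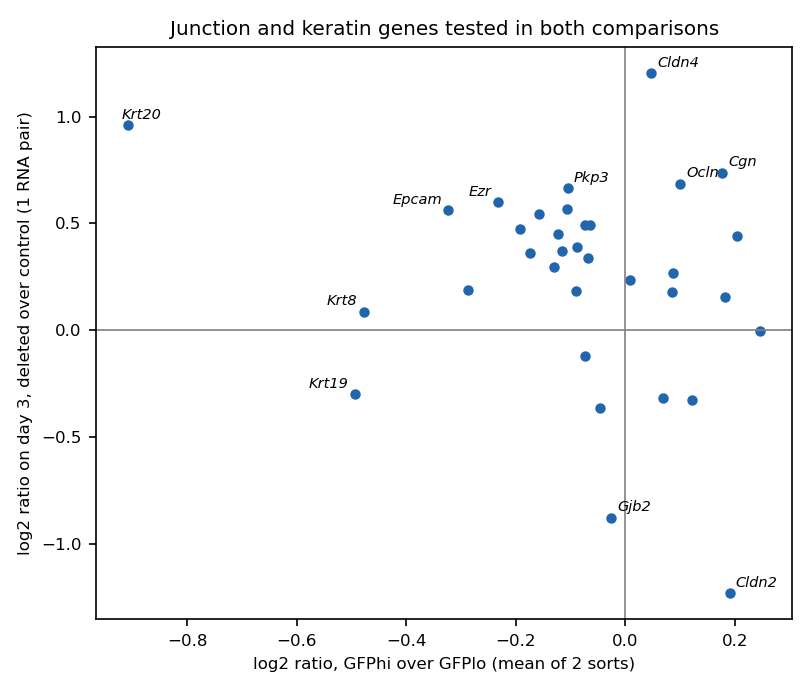
Day 3 log2 ratio of deleted over control (y axis, 1 RNA pair) against the mean log2 ratio of GFPhi over GFPlo (x axis, 2 sorts) for the 34 genes tested in both comparisons. The upper left corner holds 18 genes, Krt20 farthest out, and the lower right holds 4, Cldn2 farthest down.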

How the data were processed

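Per the labels, the authors isolated total RNA with Trizol and labelled it by linear amplification for two-colour Agilent arrays. Feature Extraction 9.5.3.1 quantified the spots, per the file headers, and probe positions are those of build mm8. The deposited scanner files hold spot intensity values on a linear scale and, per the file headers, processed signal intensity values and their log10 ratio (Cy5 to Cy3). A series matrix with log2 values was deposited too, and whether the authors centred them is unknown. Names for day 5 arrays were joined by feature number from the day 3 files, because a spreadsheet had altered some.

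From the mean and median background signals, normexp (offset 50) and loess within arrays gave log2 ratios, turned by the dyes the labels state. Control spots had weight 0 and outlier spots were left out. The 41174 probes carry 27573 names, of which 23374 probes were named by accession. RNA pairs were fitted with limma 3.58.1 (R 4.3.3), with 1 spread for both comparisons, and p values are two-sided and adjusted by Benjamini-Hochberg over all genes tested. Moderation used a prior SD of 0.157. The day difference takes its spread from the sorts, whose SD had a median of 0.0460 among genes not tested there against 0.0811 among those tested, so standard errors of the first are low. The number of RNA pairs limits the precision. Mice were pooled within a sort, so p values measure the spread between pools or extracts. The 2 deletion pairs are day 3 and day 5, so the SD and p values of the deletion include the difference between days. Through the shared spread, that difference also enters the standard errors of the sorts. Cldn2 had an SD of 0.08 between sorts and a standard error of 0.38 in the sorts. Each slide holds 1 RNA pair, so slide and pair cannot be told apart. The dye-swapped arrays share both extracts.

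Array values in full are given for genes with 1 sign on all 4 arrays of a comparison and an absolute mean of at least 0.3, and for those whose days differed by at least 0.5, and other genes are named for the calls or roles they show. From other lists up to 3 genes with 1 sign and the largest absolute mean are named, and a gene that this rule names is not reported here. The genes, lists and rules were chosen with earlier results of these data known. The fit was tested on simulated data for the sorts and the day difference, and not for the deletion over both days. It returned the sizes of known changes on average, but these did not pass its adjusted test. The simulation gave all RNA pairs of a gene the same spread. In the data the median SD was 0.081 between sorts and 0.196 between deletion days, so the simulated result need not hold for them. Promoter sequences come from RefSeq, and its coordinates were not mixed with mm8.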

Additional observations from a re-analysis of the deposited data

Results flagged for a closer look

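In 3 of the 34 genes tested in the sorts, 1 of the 4 sort arrays stood apart from the others, its gap to the nearest being past Dixon's critical value for 4 arrays. Ocln gave -0.069 on 1 array of sort 2, below the others. Krt8 gave -0.33 on 1 array of sort 2, above the others, and Gjb1 gave -0.28 on 1 array of sort 1, below the others. Chance flags about 1 group in 20 when the 4 values are independent. The 4 sort arrays are dye-swapped pairs from 2 sorts, so that rate need not hold here. The share flagged over all genes was not computed.

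The effect of the deletion differed between the days, by limma's test of day 5 minus day 3, for 8 genes. It was higher on day 5 for Cldn2 by 1.50, Gjb2 by 1.12 and Pkp2 by 0.48. It was lower on day 5 for Cldn4 (-1.45), Ocln (-0.83), Cldn8 (-0.69), Epcam (-0.60) and Pkp3 (-0.49). This share of the 39 genes tested is below the 27.8% of all genes, and each day has 1 RNA pair.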

How the results depend on the processing

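There were 359 values of single genes under another background correction, normalization, value table or probe rule. Of these, 296 moved by less than the SD of the 2 RNA pairs and 62 by more (30 of them with median centring). The last 1 changed sign after keeping 1 sign on all 4 arrays: Tjp3 in the deletion, -0.038 with median centring. Means of genes that had not kept 1 sign were counted by size alone, and some changed sign too. Among these were Cldn3, Cdh1 and Krt8 in the deletion with median centring, and Dsc2 in the sorts with the mean over all probes. A gene with 1 probe cannot move under the probe rule, and widely differing pairs give a wide SD. The count of 296 is therefore not a measure of stability. Median centring without loess moved most: the day test called 0 of 39 genes, 2 of 34 kept 1 sign on all sort arrays and 0 of 39 on all deletion arrays, and the medians were -0.16 in the sorts, 0.045 in the deletion, 0.24 on day 3 and -0.091 on day 5. Relative to the median of all genes in that setting these are -0.14, 0.13, 0.32 and 0.0039. The day test also called 0 with the scanner's processed signals (0.453% of all genes), 3 of 37 with the series matrix (Cldn2, Cldn4 and Gjb2; 12.2% of all genes), and 10 of 39 without background subtraction (30.6% of all genes) and with the mean over all probes (26.3%). The median of the sorts was -0.094 with processed signals, -0.11 with the series matrix and -0.054 with the mean over all probes. The causes were not tested. Leaving out 1 RNA pair, which leaves 1 pair assumed to vary like the others, gave 21 to 24 genes with 1 sign on the sort arrays and a sort median from -0.069 to -0.051. It gave 27 to 35 genes with 1 sign on the deletion arrays and 1 (without day 3) to 21 (without day 5) genes past the deletion test; fewer arrays make 1 sign easier to reach. No paired analysis was possible because replicate numbers do not pair samples across the comparisons, and slides coincide with RNA pairs, so a slide block equals the RNA pair block, which called 0 genes of the list. Signal over background limits Cldn1, Cldn5, Cldn8, Tjp1, Ctnnd1 and Ppl in the sorts.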

Other observations

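Some genes outside the 40 showed larger contrasts between days than their relatives within. Krt23, a type I keratin, had 1.33 and 1.24 on the day 3 arrays and -1.19 and -0.81 on the day 5 arrays, with a difference of -2.29 (adjusted p = 0.0051 by limma), and averaged 0.60 ± 0.18 (SD, n = 2) in GFPhi over GFPlo, where Krt8, Krt19 and Krt20 were below 0. Ybx3, a DNA-binding protein that associates with the tight junction scaffold ZO-1, had -1.11 and -0.94 on day 3 and 0.25 and -0.01 on day 5. Cgnl1 (paracingulin), a relative of cingulin, had -0.63 and -0.65 on day 3 and 0.30 and 0.27 on day 5. Its day 3 values lay opposite to those of Cgn.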
